A study of Mus musculus with 32 samples.

Results

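The genes described here encode the vacuolar proton pump (V-ATPase), the cathepsins, and the lysosome-associated membrane proteins (LAMPs) in 3 populations sorted from mouse islets, namely β cells, CD31+ endothelial cells (ECs), and CD11b+ macrophages (MΦs). They were chosen by name, as V1 and V0 subunits of the V-ATPase (symbols beginning Atp6v1 or Atp6v0), its accessory proteins Atp6ap1 and Atp6ap2, the cathepsin family (symbols beginning Cts), and Lamp1, Lamp2, and Lamp3. Of 22850 genes in the table, 50 matched, and the 40 that reached a score of 20 in at least one of 32 samples were kept. They comprise 11 V1 subunits, 9 V0 subunits, 2 accessory proteins, 15 cathepsins, and 3 LAMPs. The score is the authors' normalized expression value, a whole number with 1 as the lowest. Of the 10 genes left out, Atp6v1e2, Cts3, Cts6, Ctsm, and Ctsr stood at 1 in every sample, Cts7, Ctsj, and Ctsq reached 2, Ctsg reached 3, and Atp6v1g3, the nearest to the limit, reached 15. The kept genes nearest to it were Ctsll3, at most 26, and Cts8, at most 38.

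All mice were C57BL/6 and carried MIP-GFP, RIP-rtTA, and TetO-VEGF-A, so the samples without doxycycline (Dox) had the same transgenes as the treated ones. The rat insulin promoter drives rtTA in β cells, Dox in the drinking water then induces human VEGF-A there, and the mouse insulin promoter drives GFP. β cells were sorted by GFP from cells negative for CD31 and CD11b. Sorting was done before treatment (No Dox), after 1 week of Dox (1wk Dox), and 1 week after Dox was withdrawn (1wk WD). There were 4, 5, and 3 β cell samples at these time points, 4, 1, and 5 EC samples, and 4, 2, and 4 MΦ samples. The islets of several mice went into each sample, and p-values measure the spread between such pools. The labels do not give the mice or their age, for which the authors state a range that covers all mice of the study.

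Lysosomes are acidified by the V-ATPase, in which the cytosolic V1 sector hydrolyses ATP and the membrane V0 sector carries protons into the lumen. Cathepsins are proteases that work mostly in that acid lumen. The LAMPs are the abundant glycoproteins of the lysosomal membrane. Several V-ATPase subunits exist as paralogs with different tissue distributions, β cells also use the pump to acidify insulin granules, and MΦs use lysosomal proteases to digest what they engulf and to process antigen.

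Label checks and sample quality bear on several results below. By the sample numbers in the table's column names, 4 samples belong to a later run of numbers, apart from the other 28. These are both 1wk Dox MΦ samples, the 1wk Dox EC sample, and β cell 1wk WD replicate 3. The sources used here do not say what the numbers follow, but in MΦs and ECs the number run and 1wk Dox cannot be told apart. All 14 MΦ, 10 endothelial, and 10 β cell markers were higher in every sample of their own cell type than in any other sample. Acinar markers (10 genes, summed score) were highest in 5 No Dox samples. They reached 13772753 and 10001509 in β cell replicates 3 and 4 and 12376787 and 2118001 in MΦ replicates 2 and 4, and 1877410 in EC replicate 2, whereas the 1wk Dox MΦs had 1034 and 3589. Stromal markers (9 genes) summed to 957 and 1040 in No Dox β cell replicates 1 and 2, and to 25079 or more in every other β cell sample. Scores are not known to be corrected for gene length, so no gene is read as higher or lower than another. Differences are on the log2(score + 1) scale, which understates the change of low genes.

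The expression map gives all 40 genes in all 32 samples. At No Dox, 23 of the 40 genes had their highest mean in MΦs, 11 in β cells, and 5 in ECs, and Ctsll3 stood at 1 in all 3. Among V1 subunits the highest mean was in β cells for 7 of 11, and among cathepsins in MΦs for 9 of 15. In the tests below, however, none of the 11 V1 subunits passed between MΦs and β cells, and 1 was called between ECs and β cells. The same shares were not computed over all genes, so these counts are not read as a bias.

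**Figure D1:**
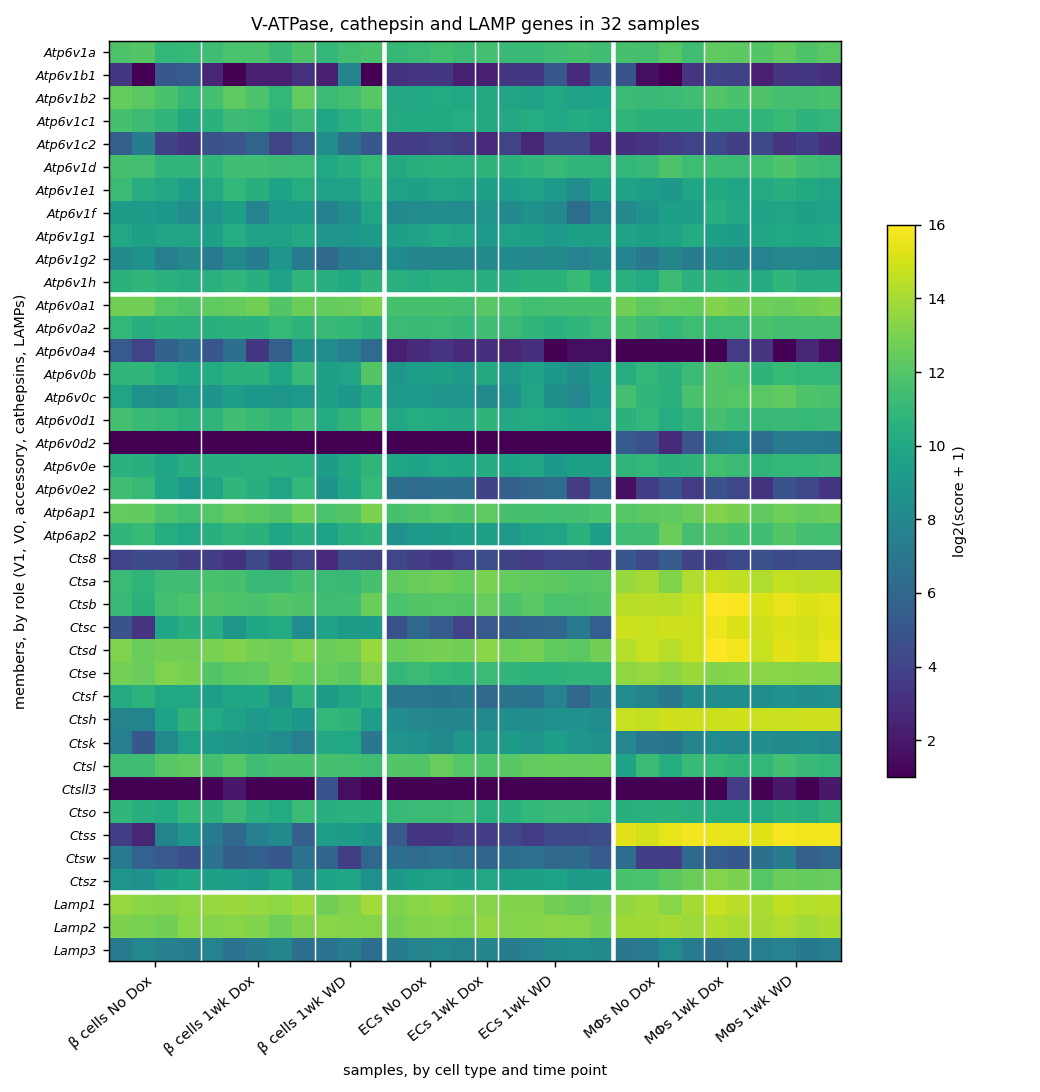
Rows are the 40 genes by role and columns the 32 samples by cell type and time point; color gives log2(score + 1). Ctss, Ctsc, and Ctsh are brightest in MΦs, Atp6v0d2 stands at the floor in all β cell and EC samples, and Atp6v0e2 is brightest in β cells.

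Most of the genes called higher in MΦs than in β cells were cathepsins, 7 of 10. Compared at No Dox, 10 of the 39 genes tested were higher in MΦs and 4 lower, at a fold change of at least 2 and a limma adjusted p under 0.05. That is 35.9% of them, below the 43.2% of all genes tested. The median difference was 0.17 (log2), and -0.12 over all genes, which quantile normalization moved to 0.045. The direction over the 39 depended on the β cell replicates, as their median was -0.07 without β cell replicates 3 and 4, with 18 of 38 higher, and 0.49 without replicates 1 and 2. Atp6v0d2 and Atp6v0a4 entered this fit only through MΦs and only through β cells, the groups where they are high, so they are counted among the calls but nothing is read from their tests. In sorted bulk samples, fewer cells of a type and less RNA per cell cannot be told apart. Beside the cathepsins, Atp6v0c (2.18 ± 0.30) and Atp6ap2 (1.15 ± 0.33) were higher in MΦs.

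Ctss, an elastin-degrading protease of antigen-presenting cells, had scores of 40454, 33906, 44831, and 53977 in MΦs, 13, 5, 221, and 443 in β cells, and 38, 9, 9, and 12 in ECs. MΦs were far above both, by 9.64 ± 1.15 (SE) over β cells (adjusted p = 2.93e-05) and 11.47 ± 1.15 over ECs (adjusted p = 7.02e-06). Ctsc, the dipeptidyl peptidase that activates granule serine proteases, ran from 27860 to 30919 in MΦs and from 15 to 64 in ECs, against 28, 9, 905, and 1368 in β cells. Its difference was 7.73 ± 1.32 from β cells (adjusted p = 4.07e-04) and 9.80 ± 1.32 from ECs (adjusted p = 7.62e-05). Ctsh, an aminopeptidase, ran from 25587 to 30850 in MΦs, from 231 to 324 in ECs, and from 208 to 1709 in β cells. MΦs were higher by 5.81 ± 0.55 than β cells (adjusted p = 5.45e-06) and by 6.79 ± 0.55 than ECs (adjusted p = 1.21e-06). For all 3 genes MΦs did not overlap β cells or ECs, but the size of the β cell difference depended on the β cell replicates. Without β cell replicates 1 and 2 the difference from β cells was 7.09 for Ctss, 4.72 for Ctsc, and 4.58 for Ctsh, and without replicates 3 and 4 it was 12.19, 10.75, and 7.04. All of these values remained past the threshold.

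The other cathepsins called against β cells were Ctsb, Ctsz, Ctsa, and Ctsd, with differences of 3.23 ± 0.21, 2.89 ± 0.29, 2.58 ± 0.21, and 1.76 ± 0.16 (adjusted p at most 8.46e-06). Ctsb and Ctsd are the general endopeptidases of the lysosome, Ctsa is a carboxypeptidase that also protects lysosomal glycosidases, and Ctsz is another carboxypeptidase. All 4 were called against ECs as well, although Ctsa was under 2-fold (0.94) without MΦ replicates 2 and 4. Ctsl, an endopeptidase, went the other way: its scores were 847, 2369, 1255, and 2187 in MΦs, below the 2719 to 4914 of β cells and the 3817 to 5829 of ECs. The differences were -1.22 ± 0.33 (adjusted p = 0.007611) and -1.53 ± 0.33 (adjusted p = 0.002254). The calls against β cells of Ctsl (-0.83, adjusted p = 0.07088) and Atp6ap2 (0.69, adjusted p = 0.1031) were lost without β cell replicates 3 and 4. Single samples also ended them: Ctsl was at -0.93 without MΦ replicate 1, and Atp6ap2 at 0.93 without β cell replicate 4 and 0.86 without MΦ replicate 3, each under 2-fold. Ctsf, another cysteine cathepsin, ran from 997 to 1628 in β cells, from 129 to 318 in MΦs, and from 113 to 127 in ECs. β cells were above both: MΦs differed from β cells by -2.39 ± 0.30 (adjusted p = 3.86e-05) and ECs by -3.28 ± 0.30 (adjusted p = 4.50e-06). Ctsk, the collagenase best known from osteoclasts, was at 113 to 242 in MΦs and 279 to 493 in ECs, groups that did not overlap, but its difference of -1.28 ± 0.74 did not pass (adjusted p = 0.1917).

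MΦs were above ECs for 8 cathepsins and 4 genes of the pump, with Atp6v0d2, which entered through MΦs alone, not read. With Atp6v0d2 counted, 13 of 39 genes were higher in MΦs and 3 lower, or 41% of those tested, beside 33.5% of all genes, with a median of 0.66 over the 39 and 0.01 over all genes. One of the 3 lower is Atp6v0a4, which was under a score of 20 in both MΦs and ECs. Besides the cathepsins, the genes higher in MΦs were Atp6ap2 (2.61 ± 0.33, adjusted p = 4.78e-05), Atp6v0c (2.22 ± 0.30), Atp6v0b (1.60 ± 0.26), and Atp6v1b2 (1.21 ± 0.25), with Atp6v0d2 above the floor in MΦs alone. Atp6ap2 is the prorenin receptor and a pump assembly factor, Atp6v0c and Atp6v0b are proteolipids of the proton-carrying ring, and Atp6v1b2 is the widely expressed form of the V1 B subunit. ECs in turn were below β cells for 7 genes and above for 1, Ctsa, of 39 tested. This is 20.5%, beside 37.7% of all genes tested, and the median was -0.35, beside -0.07. Those called lower were Atp6v0e2, Ctsf, Atp6v0a4, Ctse, Atp6v1b2, Atp6ap2, and Atp6v0b. Atp6v0a4 entered through β cells alone, so it is counted here but nothing is read from its test. Of the 8 calls, 6 remained with 1wk WD samples and 7 without β cell replicates 1 and 2. With 1wk WD samples in place of No Dox the count rose from 8 to 14 (35.9%, beside 39.9% of all genes), without β cell replicates 3 and 4 it rose to 17 of 38 (44.7%, beside 45.4%), and with quantile normalization the median over all genes turned to 0.16.

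Some paralogs of the V-ATPase subunits differed between the cell types, namely Atp6v0e2, Atp6v1b2, and Tcirg1 by the test, and Atp6v0a4 and Atp6v0d2 by their scores alone. Atp6v0e2, a small V0 subunit, had scores of 2725, 2135, 925, and 564 in β cells, 93, 76, 88, and 81 in ECs, and 2, 13, 27, and 11 in MΦs. The 3 groups did not overlap, and the difference from β cells was -6.92 ± 0.67 in MΦs (adjusted p = 6.66e-06) and -3.95 ± 0.67 in ECs (adjusted p = 4.84e-04). Its paralog Atp6v0e ran from 829 to 1938 across all 12 samples. The β cell scores of Atp6v0e2 were lower in replicates 3 and 4, the samples with high acinar markers.

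The a subunit, which anchors the pump to particular membranes, has 4 forms. Tcirg1 (a3), outside the name rule, had scores of 4655 to 7749 in MΦs, 1213 to 1601 in ECs, and 93 to 628 in β cells, with a MΦ difference of 4.54 ± 0.54 from β cells (adjusted p = 2.91e-05) and 2.12 ± 0.54 from ECs (adjusted p = 0.007156). Atp6v0a4, the kidney form, stood at 1 in all 4 MΦ samples and at 4 to 9 in ECs, and reached 15 to 89 in β cells, without overlap. Its scores in MΦs and ECs were under 20, the mean that a group had to reach, so no difference between these 2 was read. Atp6v0a1 and Atp6v0a2 were present in all 3 cell types, from 2905 to 7035 and from 1331 to 3378, and neither was called between any cell types. For the d subunit, which couples the ring to the stalk, Atp6v0d1 ran from 1027 to 3066 across cell types, and Atp6v0d2, known from osteoclasts and MΦs, stood at 1 in all 12 β cell and 10 EC samples at every time point. In No Dox MΦs it had scores of 37, 27, 6, and 30.

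The remaining paralogs are those of the V1 B, G, and C subunits. Atp6v1b1, the kidney form of the B subunit, ran from 1 to 39 at No Dox, and Atp6v1b2 from 963 to 5703. Atp6v1g1 ran from 709 to 1197 and Atp6v1g2, the neuronal form, from 125 to 413. Atp6v1c2 ran from 7 to 154 and Atp6v1c1 from 1086 to 3207. Of these, only Atp6v1b2 was called in a comparison of cell types at No Dox with all samples. Without β cell replicates 3 and 4, Atp6v1c2 was also called lower in MΦs than in β cells (-2.91 ± 0.58, adjusted p = 0.001322).

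**Figure D2:**
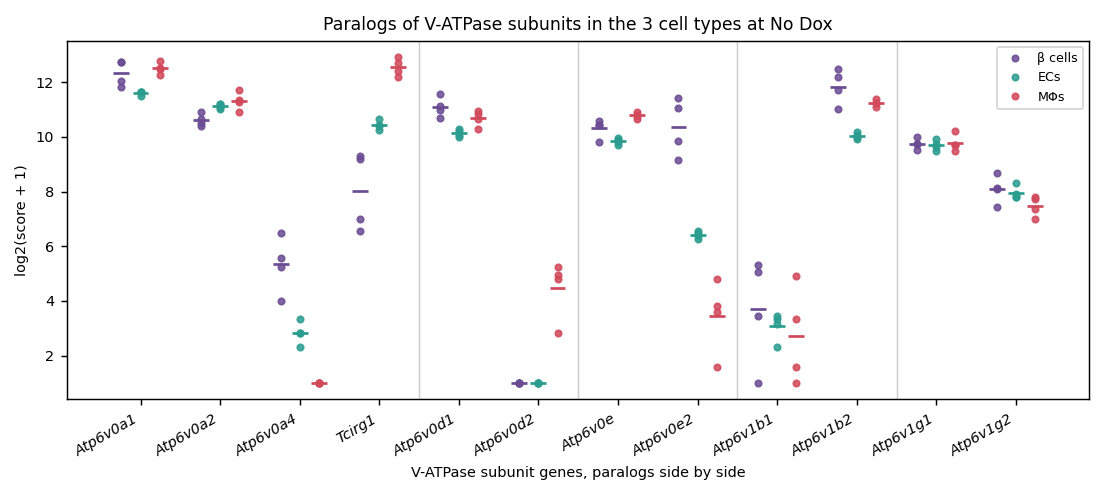
The vertical axis is log2(score + 1) at No Dox, points are samples (4 per cell type), and short lines are means. Atp6v0e2 descends from β cells to ECs to MΦs, Tcirg1 ascends in that order, and Atp6v0d2 leaves the floor in MΦs alone.

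After 1 week of VEGF-A induction, 10 of these genes were higher in MΦs. Both 1wk Dox samples belong to the later number run, and all No Dox and 1wk WD MΦ samples to the earlier one. The authors report that induction draws circulating monocytes into islets and that MΦs remain there after withdrawal. At both time points, newly arrived cells and changed expression within cells cannot be told apart. Of 36 tested, 5 were called higher and none lower, which is 13.9%, beside 2.26% of all 15014 genes tested. They were Atp6v0d2, Ctsb, Ctsd, Atp6v0b, and Ctsz. At any fold, 10 passed an adjusted p of 0.05, all higher, which is 27.8%, beside 4.58% of all genes, of which 405 rose and 283 fell. The median difference was 0.54 over the 36 genes and 0.035 over all genes, and 28 of the 36 were higher at 1wk Dox. Both 1wk Dox samples lay above all 4 No Dox samples in 20 of the 36 (55.6%, beside 16.2% of all genes) and below them in 3 (8.33%, beside 14.7%).

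Ctsb (mm9, chr14:63741302-63764758) had MΦ scores of 21499, 22660, 21712, and 26316 at No Dox and 79830 and 60112 at 1wk Dox. The 2 groups were far apart, and the rise was 1.59 ± 0.17, or 3.02-fold (adjusted p = 0.001312). Ctsd (chr7:149557053-149573943), an aspartic protease that also activates other lysosomal enzymes, went from 20842, 27532, 21163, and 28041 to 63408 and 52169. This was a rise of 1.25 ± 0.22, or 2.38-fold (adjusted p = 0.01076). Ctsz (chr2:174252994-174264540) went from 3262, 3486, 4756, and 6382 to 9366 and 8443, a rise of 1.05 ± 0.24 (adjusted p = 0.03228). For these 3 genes the higher 1wk Dox value was that of replicate 4.

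Atp6v0d2 (chr4:19803988-19849752) rose most of the 10. Its scores of 37, 27, 6, and 30 became 180 and 217, a rise of 3.18 ± 0.67, or 9.06-fold (adjusted p = 0.02244), with No Dox replicate 3 well below the other No Dox samples. Atp6v0d1, the common form of the same subunit, went from a range of 1239 to 1986 up to 3046 and 2433, a rise of 0.73 ± 0.19 (adjusted p = 0.04467). Atp6v0b (chr4:117556931-117559938) went from 1293, 1977, 1594, and 2440 to 4133 and 3445, a rise of 1.09 ± 0.22 (adjusted p = 0.0205).

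Lamp1 scores in MΦs were 11906, 14438, 10206, and 16101 at No Dox and 27122 and 22085 at 1wk Dox. The rise was 0.92 ± 0.20 (adjusted p = 0.02437), under 2-fold. Ctsa rose by 0.91 ± 0.24 (adjusted p = 0.04969), Atp6ap1, an assembly factor of the V0 sector, by 0.74 ± 0.17 (adjusted p = 0.02848), and Atp6v1b2 by 0.60 ± 0.15 (adjusted p = 0.03822). Among the V1 subunits, Atp6v1b2 was the 1 gene of 9 that passed, among V0 subunits 3 of 8 passed, and among cathepsins 4 of 14. Atp6v1f had a difference of 1.25 ± 0.34 that did not pass (adjusted p = 0.0524), and Atp6v0c one of 0.85 ± 0.28 (adjusted p = 0.09861).

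Ctss, Ctsc, and Ctsh, the cathepsins furthest apart between the cell types, did not pass at 1wk Dox. Ctss scores were 47610 and 44224, within the No Dox range of 33906 to 53977, and its difference was 0.10 ± 0.21 (adjusted p = 0.83). Ctsh had a difference of 0.08 ± 0.14 (adjusted p = 0.7861) and Ctsc one of 0.58 ± 0.16 (adjusted p = 0.06204), although its 1wk Dox scores of 50482 and 38046 lay above all No Dox samples. Lamp2, a receptor of chaperone-mediated autophagy, had one of 0.30 ± 0.14 (adjusted p = 0.2325) and Atp6ap2 one of -0.02 ± 0.30 (adjusted p = 0.9781). Lamp3, a LAMP of dendritic cells, had one of -0.58 ± 0.42 (adjusted p = 0.4712), Ctsl one of 0.34 ± 0.34 (adjusted p = 0.6188), and Ctsk one of 0.82 ± 0.37 (adjusted p = 0.2254).

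**Figure D3:**
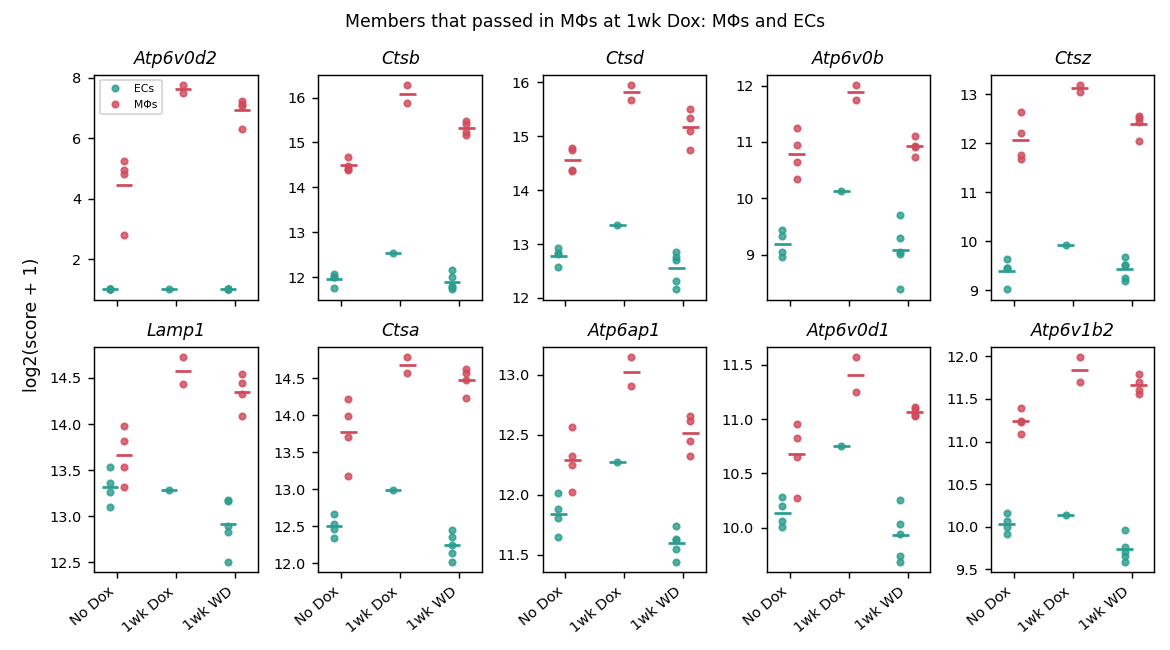
Each panel is 1 of the 10 genes that passed in MΦs at 1wk Dox; the vertical axis is log2(score + 1), points are samples of MΦs and ECs at each time point, and short lines are means. In every panel both 1wk Dox MΦ samples lie above all No Dox MΦ samples, and the EC points stay below those of 1wk Dox MΦs.

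The number of calls depended on the fit. The 5 became 1 with no filter on low scores, with no trend in the variance prior, or with only the 2 groups compared. They became 0 with a replicate block, whose numbers are not known to pair the samples. Over all genes, the 340 called became 118, 52, 38, and 3 in the same order. Without either 1wk Dox sample the other is alone in its group and is assumed to vary like the other groups. Without replicate 4 none of the 10 genes passed (Ctsb 1.39, adjusted p = 0.08196), and without replicate 5 Ctsb alone was called (1.80, adjusted p = 0.006491). Without No Dox replicate 1 there were 3 called (236 of all 15076 genes), and without No Dox replicate 4 there were 8 (400 of all 15098 genes). Marker levels moved with the same contrast: the 14 MΦ markers summed to 315263 to 444086 at No Dox and to 637428 and 516630 at 1wk Dox, the 10 endothelial markers summed to 1429 to 1932 and to 4165 and 3225, and acinar markers were lower at 1wk Dox. Without No Dox replicates 2 and 4, which held the highest acinar sums, 8 genes were called, among them the same 5, beside 6.41% of all genes. The 1 β cell sample of the later number run, 1wk WD replicate 3, also differed from its group. Ctsb scores in β cell 1wk WD replicates 1, 2, and 3 were 2639, 2669, and 6299, those of Ctsd 6368, 6876, and 13154, those of Atp6v0b 709, 869, and 4073, and those of Lamp1 6926, 9101, and 15652. Replicate 3 was above both others in 8 of the 9 genes of this set tested in β cells and in 24 of 37 genes of the group (64.9%), beside 42.1% of all genes. Markers moved with it too: in replicates 1, 2, and 3 the β cell markers summed to 636632, 1919441, and 10941261, the stromal markers to 359614, 326951, and 25079, and the dendritic cell markers to 12551, 9811, and 2885. Replicate 3 was also highest in endothelial markers (4142, 6807, and 21007) and in MΦ markers (7106, 4843, and 8365). The part of the number run in the rise was not tested. The part of the markers in the rise was not tested. Of the 10 genes that passed, 6 overlap another gene of the table, and the sources used here do not state whether counting used strand.

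The promoters of the 40 genes were searched for a short sequence. CACGTG, the E-box bound by many bHLH factors, and its longer form TCACGTGA, the core of the element known from lysosomal gene promoters, were searched in windows from 250 bases before to 50 after each start (RefSeq, GRCm38.p6). Each reads the same on both strands, and every TCACGTGA contains a CACGTG. Of the 40 genes, 30 have a window. CACGTG was found in 10 of 30 genes (33.3%) and TCACGTGA in 5 of 30 (16.7%), beside 8.09% and 1.12% of all 27025 genes with a window. Of the 10 genes that rose in MΦs, 7 have a window, and 5 of these hold CACGTG and 3 hold TCACGTGA. Among 19 that were tested in MΦs and did not pass, 4 and 2 did. Of these, Atp6v1a and Atp6v0e held TCACGTGA, and Ctsl and Ctsf held CACGTG alone. Ctsz and Atp6ap1 rose without a match, and Ctsb, Atp6v0d2, and Atp6v1b2 have no window. A match is a description of the sequence, and binding was not measured. The part of these sequences in the rise was not tested.

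The 5 windows with a match among the genes that rose in MΦs at 1wk Dox are printed, with CACGTG or TCACGTGA in capitals. The Ctsd window (chr7:142387778-142388077, minus strand) holds 2 matches, one of them TCACGTGA, one of 2 Ctsa windows (chr2:164833523-164833822, plus strand) holds 2 copies of TCACGTGA, and that of Atp6v0d1 (chr8:105566015-105566314, minus strand) holds 1. The Atp6v0b window (chr4:117887280-117887579, minus strand) holds 2 copies of CACGTG and the Lamp1 window (chr8:13158911-13159210, plus strand) 4, the most of the 5. In all but Ctsd, whose first match starts at base 6, the matches start between base 190 (Lamp1) and base 256 (Ctsa), counted from 1 at the 5′ end.
Ctsd: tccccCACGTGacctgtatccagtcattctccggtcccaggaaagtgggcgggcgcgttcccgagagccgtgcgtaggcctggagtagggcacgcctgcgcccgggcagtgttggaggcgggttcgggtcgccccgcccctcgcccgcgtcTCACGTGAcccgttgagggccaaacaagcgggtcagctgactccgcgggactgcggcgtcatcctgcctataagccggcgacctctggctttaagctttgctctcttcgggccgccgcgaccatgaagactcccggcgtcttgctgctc
Ctsa: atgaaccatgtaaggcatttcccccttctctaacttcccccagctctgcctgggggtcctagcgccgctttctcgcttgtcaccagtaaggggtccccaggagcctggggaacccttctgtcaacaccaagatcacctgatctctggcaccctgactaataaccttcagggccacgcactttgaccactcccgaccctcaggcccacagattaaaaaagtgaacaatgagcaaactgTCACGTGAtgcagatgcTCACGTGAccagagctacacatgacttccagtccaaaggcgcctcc
Atp6v0d1: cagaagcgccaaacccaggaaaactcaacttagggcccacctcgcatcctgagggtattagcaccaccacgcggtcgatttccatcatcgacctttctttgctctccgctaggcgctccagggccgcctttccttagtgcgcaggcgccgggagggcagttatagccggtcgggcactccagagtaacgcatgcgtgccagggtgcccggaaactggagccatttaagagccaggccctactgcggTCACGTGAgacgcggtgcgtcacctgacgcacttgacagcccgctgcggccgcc
Atp6v0b: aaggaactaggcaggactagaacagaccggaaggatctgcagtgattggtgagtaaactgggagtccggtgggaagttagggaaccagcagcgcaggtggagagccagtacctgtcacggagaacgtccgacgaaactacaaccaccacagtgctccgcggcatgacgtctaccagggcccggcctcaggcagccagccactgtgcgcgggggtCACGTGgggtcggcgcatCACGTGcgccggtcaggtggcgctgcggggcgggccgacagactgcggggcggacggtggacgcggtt
Lamp1: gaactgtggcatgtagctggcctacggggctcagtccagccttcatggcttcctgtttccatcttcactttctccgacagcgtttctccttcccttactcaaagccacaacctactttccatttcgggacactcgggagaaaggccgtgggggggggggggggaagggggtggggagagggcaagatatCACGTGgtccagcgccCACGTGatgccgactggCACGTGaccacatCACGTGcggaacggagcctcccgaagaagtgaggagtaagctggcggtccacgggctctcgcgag

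Other genes of the lysosome, and inhibitors of cathepsins and other proteases, were taken from lists chosen beside the 40. Of 79 tested in MΦs at 1wk Dox, 7 of them inhibitors, 20 passed at any fold, all higher (25.3%, beside 4.58% of all genes), with a median of 0.46. Without the inhibitors 17 of 72 passed and 5 were called. Of the 79, 8 were called, or 10.1%, beside 2.26% of all genes, and these 8 were not followed through the alternative fits. They included the acid phosphatase Acp5 (1.80), the heparan sulfate hydrolase Naglu (1.41), the tetraspanin Cd63 (1.40), and the progranulin gene Grn (1.10). Also called were the protease inhibitors Serpina3g (1.95), Serpinb9 (1.18), and Cstb (1.12), a cytosolic inhibitor of cathepsins. The last called gene was Tfec, a MiT/TFE factor, which rose by 2.37 ± 0.39 (adjusted p = 0.01013). Tfec had scores of 672, 695, 1271, and 359 at No Dox and 4312 and 2859 at 1wk Dox. Its relatives did not pass: Tfeb differed by -0.27 ± 0.23 (adjusted p = 0.5347), Tfe3 by 0.28 ± 0.15 (adjusted p = 0.2906), and Mitf by -0.22 ± 0.22 (adjusted p = 0.6303). Tcirg1 rose by 0.71 ± 0.18 (adjusted p = 0.04329) and Lgmn, the protease that processes cathepsins, by 0.88 ± 0.16 (adjusted p = 0.01389), both under 2-fold, and the inhibitor Cst3 differed by 0.30 ± 0.26 (adjusted p = 0.559). Against No Dox at 1wk WD, 5 of the 79 passed in MΦs, all higher (6.33%, beside 1.23% of all genes), of which Serpina3g was called (1.90 ± 0.31). In ECs 2 of 77 were called (2.6%, beside 1.76% of all genes), both of them inhibitors: 1 higher, Serpinb9 (1.01 ± 0.23), and 1 lower, Spink3 (-5.09 ± 1.23), a product of acinar cells, whose markers were also lower in ECs at 1wk WD than at No Dox in 4 of 5 samples. In β cells none was called by limma, and at an unadjusted p under 0.05 there were 8 of 79 at 1wk Dox (10.1%, beside 6.99% of all genes) and 15 at 1wk WD (19%, beside 8.17%).

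After Dox withdrawal, most of the genes lay above No Dox in MΦs, few past the threshold. This comparison and that at 1wk Dox share the No Dox samples. Markers moved here too: the MΦ markers summed to 467084 to 555928 at 1wk WD, above the 315263 to 444086 of No Dox. Acinar markers summed to 222961, 2706, 2189, and 1584 at 1wk WD and to 29584 to 12376787 at No Dox. The part of the markers in this difference was not tested. Of 36 genes, 31 were higher than at No Dox, with a median of 0.29 (0.003 over all genes), but only Atp6v0d2 was called, or 2.78%, beside 0.626% of all genes. Its scores of 79, 150, 138, and 134 lay above all No Dox samples, with a difference of 2.49 ± 0.55, or 5.6-fold (adjusted p = 0.04749). This value is just inside the threshold, and the call was lost when either 1wk Dox sample, any 1wk WD sample, or No Dox replicate 1, 2, or 4 was left out. Ctsb also passed, at 36557, 45869, 38644, and 43370, a rise of 0.83 ± 0.14 (adjusted p = 0.01875), so that 2 genes passed at any fold, 5.56% of the 36 beside 1.23% of all genes. Ctsb did not pass without 1wk WD replicate 2, 3, or 4 (adjusted p = 0.07866, 0.06452, and 0.07443). Lamp1 differed by 0.69 ± 0.16 (adjusted p = 0.05489), Ctsa by 0.70 ± 0.20 (adjusted p = 0.09315), and Ctsd by 0.61 ± 0.18 (adjusted p = 0.1054). Without No Dox replicates 2 and 4, 3 genes were called, beside 2.34% of all genes.

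Between 1wk Dox and 1wk WD no gene of the group was called, beside 0.0866% of all genes, and at an unadjusted p under 0.05 there were 1 higher and 6 lower (19.4%, beside 9.7% of all genes). These groups too are of different number runs. The Atp6v0b scores at 1wk WD of 1698, 2210, 1955, and 1926 lay below the 4133 and 3445 of 1wk Dox and within the No Dox range, a difference of -0.96 ± 0.22 (adjusted p = 0.1502). Ctsb differed by -0.76 ± 0.17 (adjusted p = 0.1467), with no overlap.

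**Figure D4:**
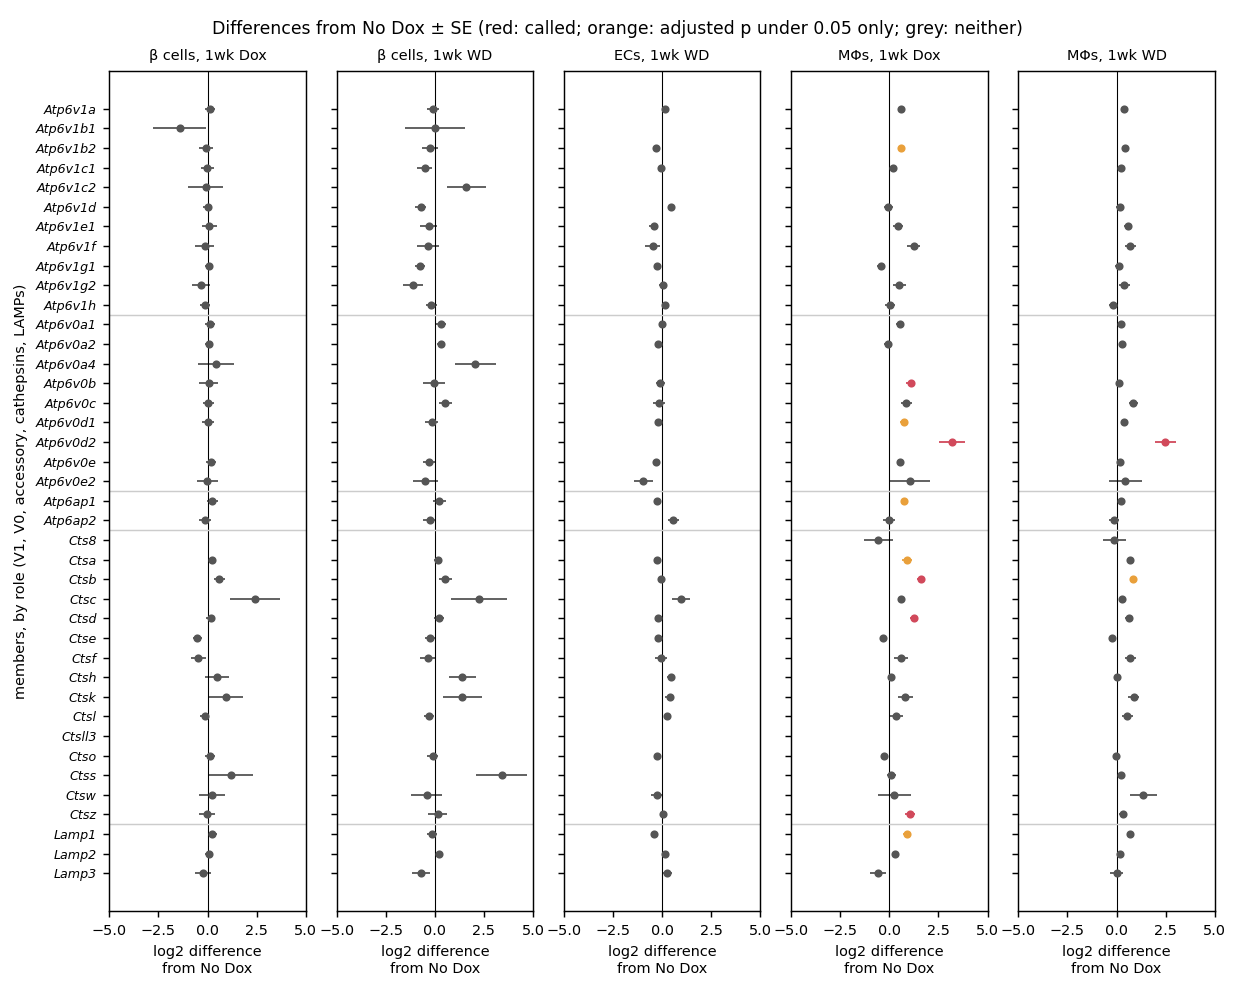
The horizontal axis is the difference from No Dox in log2(score + 1) and bars are SE, for each gene (rows, by role) in the 5 fitted comparisons with No Dox. Red points, the genes called, and orange points, those with an adjusted p under 0.05 at less than 2-fold, occur in the MΦ panels alone and all lie to the right of 0.

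In ECs no gene of the group was called at 1wk WD, of 33 tested, beside 1.76% of all genes. At an unadjusted p under 0.05, 3 were higher and 4 lower, or 21.2%, beside 21.9% of all genes, and the median was -0.10 (0.003 over all genes). Lamp1 had scores of 8800, 10531, 11904, and 9833 at No Dox and 9218, 9221, 7296, 5822, and 7600 at 1wk WD, ranges that overlapped, with a difference of -0.40 ± 0.14 (adjusted p = 0.1352). Atp6v1d had the smallest adjusted p (0.09265), with a difference of 0.45 ± 0.14.

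The response to withdrawal differed between MΦs and ECs for a few genes. In a fit of both cell types, the MΦ difference minus the EC difference was past 2-fold and an adjusted p of 0.05 for Lamp1 alone, 1 of 36, or 2.78%, beside 1.4% of all genes. Lamp1 moved by 0.69 in MΦs and by -0.40 in ECs, a gap of 1.09 ± 0.22 (adjusted p = 0.01821). Stromal markers in ECs summed to 16374 to 69590 at 1wk WD, highest in replicate 4, and to 5173 to 11866 at No Dox. Their part in the EC difference was not tested. At any fold 4 passed, 11.1% beside 2.13% of all genes: the others were Ctsa (0.96 ± 0.23, adjusted p = 0.04139), Ctsb (0.90 ± 0.16, adjusted p = 0.007735), and Atp6v1b2 (0.72 ± 0.15, adjusted p = 0.0239). The Lamp1 call was lost without EC No Dox replicate 3 (1.02, adjusted p = 0.05347), and without EC 1wk WD replicate 4 (0.99) or MΦ No Dox replicate 3 (0.98) it fell under 2-fold. Without MΦ No Dox replicates 2 and 4, 4 genes were called, or 11.1%, beside 5.58% of all genes. Atp6v1b2 did not pass without EC No Dox replicate 3 (adjusted p = 0.06715), and Ctsa lost its place when any of several single samples was left out. For Atp6v0d2, at 1 in every EC sample, the gap was the MΦ difference itself and did not pass (adjusted p = 0.07002).

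The single 1wk Dox EC sample, also of the later number run, allows no test. Of 34 genes, 1 lay 2-fold or more from the No Dox mean, beside 10.7% of all 14047 genes. This was Atp6v0e2, at 14 beside 93, 76, 88, and 81, a low score. Several genes that rose in MΦs were also above the No Dox EC range in this sample: Ctsb at 5906 (No Dox 3472 to 4277), Ctsd at 10423 (6100 to 7797), and Atp6v0b at 1116 (496 to 694), whereas Lamp1 at 10006 lay within it. Across the group 25 of 34 lay outside the No Dox range, as did 8726 of all 14047 genes.

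In β cells none of 37 genes was called at 1wk Dox (0.0122% of all genes, 2 of 16346), at 1wk WD against No Dox (0% of all genes), or between 1wk Dox and 1wk WD (0%). At an unadjusted p under 0.05 there were 0 higher and 1 lower at 1wk Dox (2.7%, beside 6.99% of all genes), 1 higher and 2 lower at 1wk WD against No Dox (8.11%, beside 8.17%), and 0 higher and 2 lower between 1wk Dox and 1wk WD (5.41%, beside 6.31%). The spread between replicates was wider than in the other cell types, with a median residual SD of 0.61 (log2) beside 0.282 in ECs and 0.346 in MΦs. Endothelial markers summed to 62374, 20805, 27902, 6790, and 1528 in the 1wk Dox β cell samples and to 1915 to 7675 at No Dox. The part of ECs in the β cell values was not tested. Atp6v1g1, a stalk subunit, had scores of 478, 476, and 567, below the 734 to 1021 of No Dox and the 709 to 1244 of 1wk Dox, with a difference of -0.76 ± 0.24 from No Dox (adjusted p = 0.5613). Ctsb had 1601 to 3409 at No Dox and 3362 to 4065 at 1wk Dox (0.60 ± 0.28, adjusted p = 0.7182), and Lamp1 9850 to 12449 and 11203 to 14048.

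Ctss, Ctsc, and Ctsh varied widely between β cell replicates. Ctss scores were 13, 5, 221, and 443 at No Dox. They were 153, 70, 182, 282, and 47 in the 1wk Dox samples and 652, 637, and 442 after withdrawal. The 1wk WD samples lay above all 1wk Dox samples but overlapped No Dox, where replicate 4 had 443, and the difference from No Dox was 3.41 ± 1.30 (adjusted p = 0.5991). Ctsc had 28 and 9 in No Dox replicates 1 and 2 and 316 or more in all other β cell samples, the highest at 1368. With No Dox replicates 3 and 4 left out, all 3 genes were called at both time points: Ctss was higher by 3.74 ± 0.73 at 1wk Dox and 5.96 ± 0.80 at 1wk WD (adjusted p = 0.01006 and 0.001754), Ctsc by 5.42 ± 0.60 and 5.27 ± 0.66, and Ctsh by 1.70 ± 0.44 and 2.61 ± 0.48. Many other genes were called without these samples too: 3 of the 37 (8.11%) at 1wk Dox, beside 7.36% of all genes, and 4 (10.8%) at 1wk WD, beside 8.74%. The markers of other cell types moved with them. In No Dox replicates 1 and 2 the stromal sums were 957 and 1040, the MΦ sums 1090 and 464, and the dendritic cell sums 469 and 281; in replicates 3 and 4 they were 149941 and 527947, 3057 and 5563, and 3780 and 4917. At 1wk WD the MΦ sums were 4843 to 8365. The part of other cells in these scores was not tested.

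**Figure D5:**
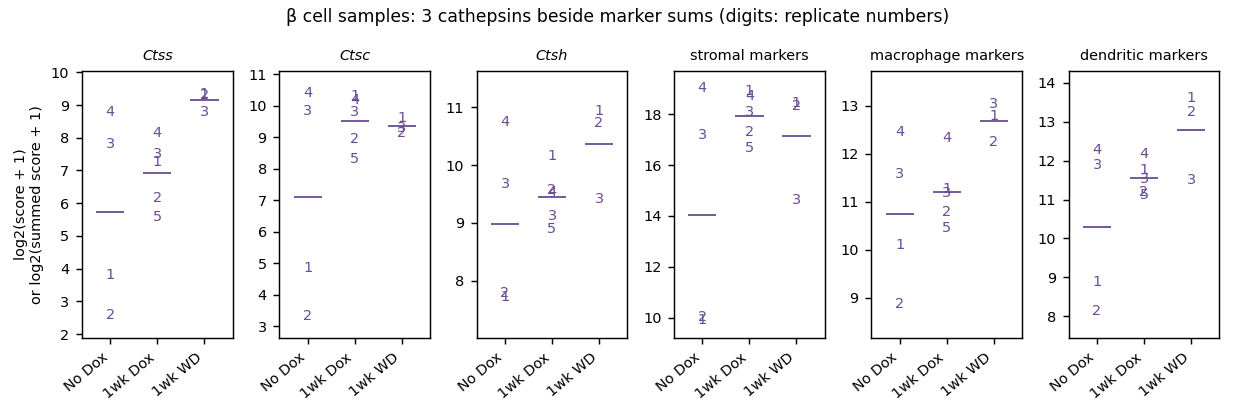
β cell samples alone, with log2(score + 1) of Ctss, Ctsc, and Ctsh and log2(summed score + 1) of stromal, MΦ, and dendritic markers; digits are replicate numbers and short lines are means. No Dox replicates 1 and 2 are lowest in every panel.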

How the data were processed

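RNA was isolated from sorted cells, amplified with the NuGEN Ovation kit, and sequenced as 50 bp paired-end reads on an Illumina HiSeq. The authors aligned reads to mm9 with TopHat 2.0 and normalized by TMM in Avadis NGS. The deposited values are whole-number scores, with 1 as the lowest. Rounding makes low scores coarse, and depth is unknown. Sums of scores ran from 23465985 to 53441769. The table holds 38 sample columns, of which 6 belong to no sample analysed here and were not used. One label that reads Bets was taken as β cells from its other fields.

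The scores, log2-transformed here after adding 1, entered limma models (version 3.58.1, R 4.3.3) whose variance prior follows mean expression. Genes entered where any group's mean score reached 20. Models of β cells and of MΦs held 3 time points each, that of ECs only No Dox and 1wk WD, that of cell types the 12 No Dox samples, and that of MΦ and EC responses 4 groups. Adjusted p-values are Benjamini-Hochberg over all genes of the fit, and genes called are those past 2-fold with an adjusted p under 0.05. The z-score test of the authors could not be repeated from its description. Fits were tested on simulated data. Python 3.11.15, pandas 2.3.3, numpy 2.4.6, and matplotlib 3.10.9 were used for the rest. The alternatives were other pseudocounts, filters, scalings, fits without the trend, a replicate block, other groups in the fit, and samples left out.

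The genes, the lists of other lysosomal genes and markers, and the rule for the genes named were chosen with earlier results of these data known. Named were the genes called between time points or between MΦ and EC responses, the 3 largest rises and falls among called genes without overlap in each cell type comparison, the paralogs, and a set of cathepsins, LAMPs, and regulators. Atp6v1f, Atp6v0c, Atp6v1d, and Ctse were named after their values were seen. All 40 genes have the same coordinates in GENCODE M1, on mm9. Promoter windows are of another build and were matched by symbol.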

Additional observations from a re-analysis of the deposited data

Results flagged for a closer look

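Among 27 named genes in 6 groups of 4 or 5 samples, 1 sample stood apart from the rest of its group in 9 of 162 cases (5.56%), and chance alone flags about 1 in 20. In MΦs at 1wk WD, Atp6ap2 had 4012 in replicate 2 (others 2727 to 2902) and Atp6v1g2 had 200 in replicate 1 (others 238 to 246). In ECs at No Dox, Atp6v0a1 had 2905 in replicate 4 (others 3185 to 3208) and Ctsh had 324 in replicate 1 (others 231 to 241). In ECs at 1wk WD, replicate 4 had 11 for Atp6v0e2 (others 48 to 77) and 136 for Ctsc (others 44 to 61), replicate 3 had 523 for Atp6v1g1 (others 699 to 754), and replicate 1 had 4366 for Ctsl (others 5342 to 5728). In β cells at 1wk Dox, Lamp2 had 6685 in replicate 4 (others 9010 to 10126).

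The response to withdrawal differed between MΦs and ECs in the test of the difference itself for 4 genes. The gaps were 1.09 for Lamp1, 0.96 for Ctsa, 0.90 for Ctsb, and 0.72 for Atp6v1b2 (log2, MΦs minus ECs).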

How the results depend on the processing

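Most calls rest on few samples, and the depth behind low scores is unknown. Of the counts of genes called, those between MΦs and the other cell types stayed within 1.5 times under every alternative, as did those for β cells between 1wk Dox and 1wk WD and for ECs at 1wk WD (none called in each). The MΦ count at 1wk Dox was 5. It was 1 with no filter on low scores, 1 with no trend, 1 with only the 2 groups compared, 0 with a replicate block, 10 with no fold minimum, and 8 without No Dox replicates 2 and 4. Over all genes, the 340 called became 118, 52, 38, 3, 688, and 955 in the same order. Leaving out 1 sample gave 0 to 8: 0 without 1wk Dox replicate 4, 1 without 1wk Dox replicate 5, 3 without No Dox replicate 1, and 8 without No Dox replicate 4. For MΦs at 1wk WD, 94 of all genes were called, and 11 with no filter or no trend. A replicate block left 43 of all genes and only the 2 groups left 49. The MΦ count at 1wk WD was 1. It was 0 with a pseudocount of 0.1, no filter, a minimum mean of 200 (which removes Atp6v0d2), no trend, a replicate block, or only the 2 groups, 2 with no fold minimum, 3 without No Dox replicates 2 and 4, and 0 to 1 with 1 sample left out. For the MΦ and EC responses, 219 of all genes were called, 294 with a pseudocount of 20, and 100 with no filter. Quantile normalization gave 255 of all genes, no trend 148, and no fold minimum 332. The count of differing MΦ and EC responses was 1. It was 2 with a pseudocount of 20, 0 with no filter, 3 with quantile normalization, 2 with no trend, 4 with no fold minimum, 4 without No Dox MΦ replicates 2 and 4 (with 5.58% of all genes called), and 0 to 2 with 1 sample left out. The β cell counts of 0 became 3 of 37 at 1wk Dox and 4 at 1wk WD without No Dox replicates 3 and 4, when 7.36% and 8.74% of all genes were called. Between ECs and β cells 8 became 16 with no fold minimum, 14 at 1wk WD, and 17 of 38 without β cell replicates 3 and 4 (with 45.4% of all genes called). The single EC sample had 1 gene past 2-fold, and 1 to 2 with a No Dox sample left out. Where not stated, the cause was not tested.

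For the 10 MΦ genes at 1wk Dox, 121 of 199 values under alternatives kept their direction and side of the threshold, 78 kept the direction alone, and 0 reversed. Among cell type calls, Atp6v0a4 between MΦs and ECs turned to 0.17 at 1wk WD (adjusted p = 0.851), with scores near the floor in both. Whether the replicate numbers pair samples is not known. Deviations of same-numbered samples correlated from -0.512 to 0.43, and no pair of groups stayed above 0.1. Between ECs and MΦs at No Dox they were 0.208, 0.43, 0.065, and -0.138 in replicates 1, 2, 3, and 4. Paralog differences serve only to follow a pair between cell types. With a pseudocount of 20 they were, at No Dox, in β cells, ECs, and MΦs, -6.63, -5.27, and -6.42 for Atp6v1b1 minus Atp6v1b2, -5.12, -5.14, and -5.74 for Atp6v1c2 minus Atp6v1c1, 0.052, -3.16, and -5.79 for Atp6v0e2 minus Atp6v0e, and -6.72, -5.77, and -5.26 for Atp6v0d2 minus Atp6v0d1. The samples left out in pairs were chosen after the data were seen.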
